A study of Rattus norvegicus with 16 samples.

Results

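The potassium channel genes were taken as every probe set of the array with a single gene symbol that begins with Kcn. This gave 126 probe sets of 75 genes, of 31042 probe sets that are not controls. Of these, 73 probe sets (42 genes) belonged to voltage-gated channels, 26 (15 genes) to inward rectifiers, 16 (11 genes) to two-pore channels and 11 (7 genes) to calcium-activated channels and their sodium-activated relative Kcnt1. The samples were the hypothalamus of 16 male Wistar rats aged 7 to 8 weeks, with 1 Affymetrix array for each rat. In all, 4 rats were restrained and inhaled (R)-(-)-linalool for 2 h, 4 were restrained for 2 h with no odour, 4 inhaled (R)-(-)-linalool for 2 h with no restraint, and 4 controls had neither. (R)-(-)-linalool is 1 mirror-image form of a floral-smelling monoterpene alcohol of lavender oil. The layout asks which genes restraint changed, which the odour changed, and whether the odour altered the change with restraint.

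Potassium channels let potassium ions leave or enter the cell and so set the resting potential of neurons and end their action potentials. Voltage-gated channels open on depolarization, and many carry auxiliary subunits that alter their gating or traffic. Inward rectifiers hold the resting potential, take up potassium into astrocytes, and respond to G proteins or to ATP. Two-pore channels carry a background leak that responds to stretch, pH or lipids, and calcium-activated channels couple calcium entry to repolarization. Several of these currents shape the firing of the neuroendocrine cells of the hypothalamus.

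No potassium channel probe set that passed the filter on low signals was called in any of the 8 comparisons. Probe sets entered the test when their log2 signal, averaged over the 16 arrays, reached the 40th percentile of all probe sets. A probe set counted as called at a Benjamini-Hochberg adjusted p under 0.05 in limma, adjusted over all 18625 probe sets tested. The filter kept 56 of the 126 members, from 40 of the 75 genes. It kept 36 voltage-gated, 10 inward rectifier, 5 two-pore and 5 calcium-activated probe sets. The tested members had mean levels of 6.31 to 10.55 on the log2(signal + 16) scale, on which all levels and differences below are given, and the 70 untested members 4.19 to 6.23. Kcnv1 (6.20), Kcnab3 (6.21) and Kcnh6 (6.23) lay just below the threshold of 6.26, and probe sets of Kcnj3 (6.31), Kcnc2 (6.35) and Kcnab2 (6.39) just above it.

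For restrained minus unrestrained rats, averaged over both odour conditions, 0 of 56 members were called, where 4.22% of all probe sets tested were called. For restraint without odour the count was 0 of 56, where 0.897% of all were called, and for restraint among rats inhaling linalool 0 of 56, where 1.69% were called. Among restrained rats, linalool gave 0 of 56 calls, where 0.650% of all were called. Linalool against control gave 0 of 56, where 0 of all probe sets were called. Rats with both treatments against controls gave 0 of 56 (4.00% of all), linalool averaged over both restraint conditions 0 of 56 (0.714% of all), and the interaction 0 of 56 (0 of all). Read against these shares, the counts of 0 are no result particular to the members.

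Groups that did not overlap were also no more frequent than among all probe sets, with 0 of 56 members for restrained against unrestrained rats (0.902% of all), 1 for restraint without odour (5.92% of all), 3 for restraint among rats inhaling linalool (12.3% of all) and 0 for linalool averaged over restraint (0.274% of all). For the average change with restraint, 3 of 56 members (5.36%) had an unadjusted p under 0.05 in limma, against 18.9% of all probe sets tested. The shares were 7.14% of members and 12.6% of all for restraint without odour, and 5.36% and 16.3% for restraint among rats inhaling linalool. Linalool among restrained rats gave 3.57% and 12.6%, and linalool against control gave 12.5% and 9.86%, with 6 members higher and 1 lower. At that threshold, 1001 of all probe sets were higher and 836 lower with linalool against control. Whatever their p, 28 of the 56 members had positive and 28 negative differences there. For both treatments against control the shares were 5.36% and 18.8%, for the average linalool effect 8.93% and 14.8%, and for the interaction 7.14% and 8.01%. The members varied somewhat more between rats of a group than other probe sets, with a median within-group SD of 0.22 over the members tested and of 0.17 over all probe sets tested. Their median level was 7.66, and that of all probe sets tested was 8.07.

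The size of change that the data leave room for was read from the 95% intervals. For the average change with restraint, the interval lay within ±0.5, a 1.41-fold change, for 50 of 56 members (89.3%, against 89.5% of all probe sets tested), and within ±1, a 2-fold change, for all 56. Differences ran from -0.33 to 0.17, 34 members were negative and 22 positive, and the median of -0.04 lay beside -0.01 for all probe sets. With the signals as deposited, with no normalization between arrays, the median of all probe sets shifted by 0.22, and the members had a median of 0.18. Linalool against control was measured with 4 rats a group and less precisely. There, 31 of 56 members had an interval within ±0.5 (55.4%, against 76.9% of all probe sets tested) and 54 within ±1, and the differences ran from -0.68 to 0.38. Restraint without odour, also with 4 rats a group, had 40 of 56 within ±0.5 (71.4%, against 74.7% of all). For the interaction, 19 of 56 intervals lay within ±0.5 (33.9%, against 48.9% of all).

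**Figure D1:**
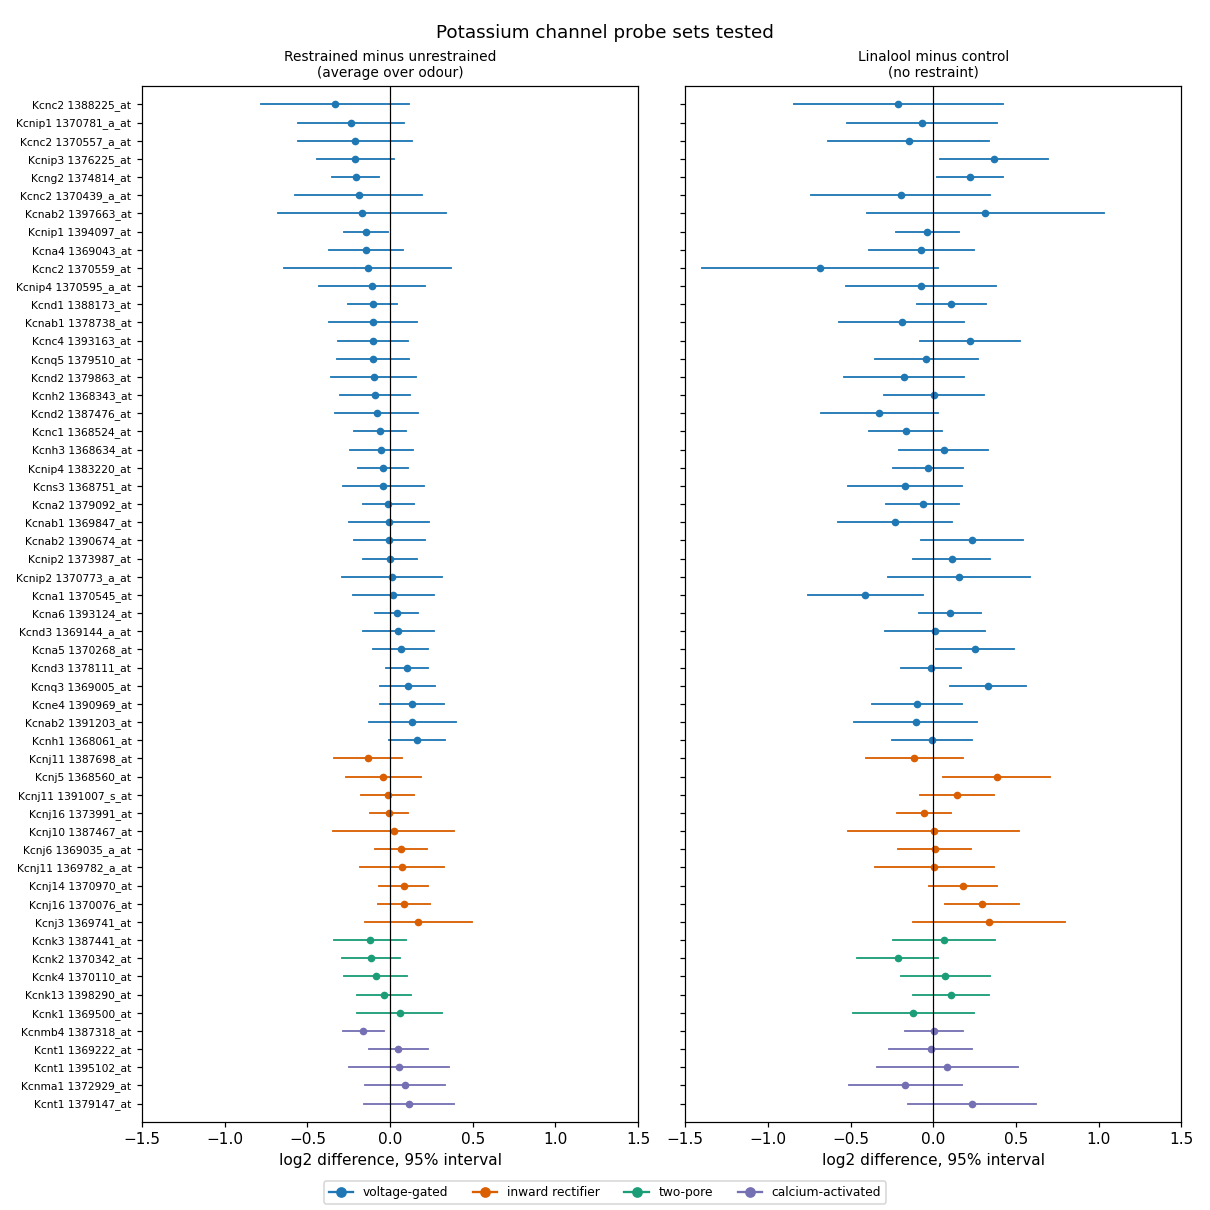
Log2 differences (points) with 95% intervals (lines) for the 56 potassium channel probe sets tested, coloured by family, for restrained minus unrestrained rats (left, 8 against 8 rats) and linalool minus control (right, 4 against 4 rats). Most intervals include 0, and all of those on the left lie within ±1.

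Among the pore subunits of voltage-gated channels, 23 probe sets of 18 genes were tested. For the average change with restraint, 16 were negative and 7 positive, with a median of -0.08. The negative ones included 4 probe sets of Kcnc2 (-0.33 to -0.14) and 2 of Kcnd2 (-0.10 and -0.08). Of all probe sets tested, 9935 were negative and 8690 positive. The lowest p belonged to Kcng2, an electrically silent subunit that modifies channels of the Kcnb type. Its levels were 6.36, 6.68, 6.72 and 6.82 in rats restrained with linalool and 6.54, 6.51, 6.55 and 6.62 in rats restrained alone, against 6.95, 6.83, 7.03 and 6.86 in rats with linalool alone and 6.62, 6.69, 6.85 and 6.62 in controls. All 4 rats with linalool alone lay above every restrained rat, while restrained rats and controls shared part of their range. The average difference with restraint was -0.21 (SE 0.07, limma adjusted p = 0.0885), and that among linalool-inhaling rats -0.27 (SE 0.09, limma adjusted p = 0.165). Of the gene's 3 probe sets, this was the brightest, and the others did not pass the filter. The dimmest went the other way among linalool-inhaling rats, with group means of 5.32 with restraint and 4.56 without. The remaining one had 5.60 and 5.86.

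Kcnh1, an ether-a-go-go channel, had 7.48, 7.78, 7.59 and 7.37 in rats restrained with linalool and 7.64, 7.74, 7.42 and 7.80 in rats restrained alone. Rats with linalool alone had 7.25, 7.46, 7.68 and 7.36, and controls 7.49, 7.32, 7.38 and 7.58. The groups overlapped, and the average difference with restraint was 0.16 (SE 0.08, limma adjusted p = 0.288).

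Kcnd1, a pore subunit of the rapidly inactivating A-type current, was lowest in rats that had both treatments. Its levels were 6.63, 6.81, 7.04 and 6.81 there, against 7.15, 7.29, 7.02 and 6.94 in rats restrained alone, 7.00, 7.07, 7.28 and 7.13 with linalool alone and 7.05, 7.08, 6.95 and 6.96 in controls. In the group with both treatments, 3 rats lay below every rat of the other groups and 1 did not. The difference was -0.30 against linalool alone (SE 0.10, limma adjusted p = 0.141) and -0.28 against restraint alone (SE 0.10, limma adjusted p = 0.222). Its interaction of -0.39 (SE 0.14, limma adjusted p = 0.516) had the smallest p among the members, and did not pass.

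The A-type subunit Kcnd2, among the brightest members, had control levels of 10.58, 10.59, 10.59 and 10.36 in its brighter probe set. With restraint that probe set differed by -0.10 on average (SE 0.12, limma adjusted p = 0.718). The brightest member, Kcna2, a low-threshold channel of axons, had 10.23, 10.34, 10.63 and 10.65 in rats restrained with linalool and 10.65, 10.64, 10.67 and 10.59 in rats restrained alone, against 10.76, 10.31, 10.56 and 10.47 with linalool alone and 10.61, 10.53, 10.61 and 10.61 in controls. The groups overlapped throughout, and the average difference with restraint was -0.01 (SE 0.07, 95% interval -0.17 to 0.15).

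Kcns3, another silent partner of Kcnb channels, had 7.23, 6.97, 7.31 and 7.08 in rats restrained with linalool, against 7.51, 7.37, 7.63 and 7.50 in rats restrained alone. These 2 groups did not overlap, as was so for 2 of 56 members and 10.4% of all probe sets in this comparison. The difference was -0.36 (SE 0.16, limma adjusted p = 0.375). Rats with linalool alone had 7.53, 6.95, 7.23 and 7.42, and controls 7.73, 7.61, 7.58 and 6.88. Kcns3 in rats with both treatments minus controls was -0.30 (SE 0.16, limma adjusted p = 0.336). Leaving out control rat 4, the lowest control, necessarily widened the difference and made it a call (limma adjusted p = 0.0483). That fit called 557 of all probe sets.

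Kcnq3, a subunit of the muscarine-inhibited M current, had 6.72, 6.83, 6.77 and 6.70 in rats restrained with linalool, 6.77, 6.71, 6.39 and 6.47 in rats restrained alone and 6.47, 6.91, 6.85 and 6.69 with linalool alone, against 6.22, 6.39, 6.42 and 6.56 in controls. All 4 rats with both treatments lay above all 4 controls. Such a lack of overlap was found for 3 of 56 members and 10.0% of all probe sets in this comparison. The difference from controls was 0.36 with both treatments (SE 0.11, limma adjusted p = 0.0827) and 0.33 with linalool alone (SE 0.11, limma adjusted p = 0.348). The controls are shared by both comparisons. A second, dimmer Kcnq3 probe set did not pass the filter.

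Kcna1, a low-threshold channel that delays firing, was the one member with an unadjusted p under 0.05 that lay lower with linalool than in controls. Its levels were 8.39, 7.89, 8.07 and 8.33 with linalool alone, against 8.43, 9.00, 8.71 and 8.18 in controls. The ranges overlapped, and the difference was -0.41 (SE 0.16, limma adjusted p = 0.425). Rats restrained with linalool had 8.23, 8.09, 8.26 and 8.49, and rats restrained alone 8.42, 8.72, 8.66 and 8.27.

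Among the auxiliary subunits of voltage-gated channels, 13 probe sets of 7 genes were tested, 9 with a negative and 4 with a positive average difference with restraint. Kcnip3, a calcium sensor that binds A-type channels and is also known as a transcriptional repressor, had 8.16, 8.72, 8.47 and 8.39 in rats restrained with linalool and 8.63, 8.78, 8.46 and 8.77 in rats restrained alone. With linalool alone it had 8.51, 9.26, 9.23 and 8.77, and in controls 8.62, 8.52, 8.45 and 8.70. In the group with linalool alone, 2 rats lay above every other rat of the study. Kcnip3 in rats restrained with linalool minus linalool alone was -0.51 (SE 0.15, limma adjusted p = 0.114). Leaving out linalool rat 1, the lowest of its group, necessarily widened the difference and made it a call (limma adjusted p = 0.0461). That fit called 143 of all probe sets. The interaction was -0.59 (SE 0.22, limma adjusted p = 0.541).

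Kcnip1, a related calcium sensor of A-type channels, had 9.51, 9.44, 9.68 and 9.71 in rats restrained with linalool and 9.53, 9.25, 9.53 and 9.60 in rats restrained alone, against 9.56, 9.68, 9.70 and 9.70 with linalool alone and 9.68, 9.80, 9.70 and 9.60 in controls, in its brighter probe set. Restrained and unrestrained rats overlapped. Its average difference with restraint was -0.15 (SE 0.06, limma adjusted p = 0.211), and its dimmer tested probe set differed by -0.24. The probe set with the widest spread of all tested members was the second brightest of Kcnab2, a cytoplasmic beta subunit, and it was singled out after its values were seen. Its controls alone ran over 5.89, 8.36, 7.67 and 6.93, while the rats restrained alone lay at 7.11, 7.10, 7.23 and 7.13.

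**Figure D2:**
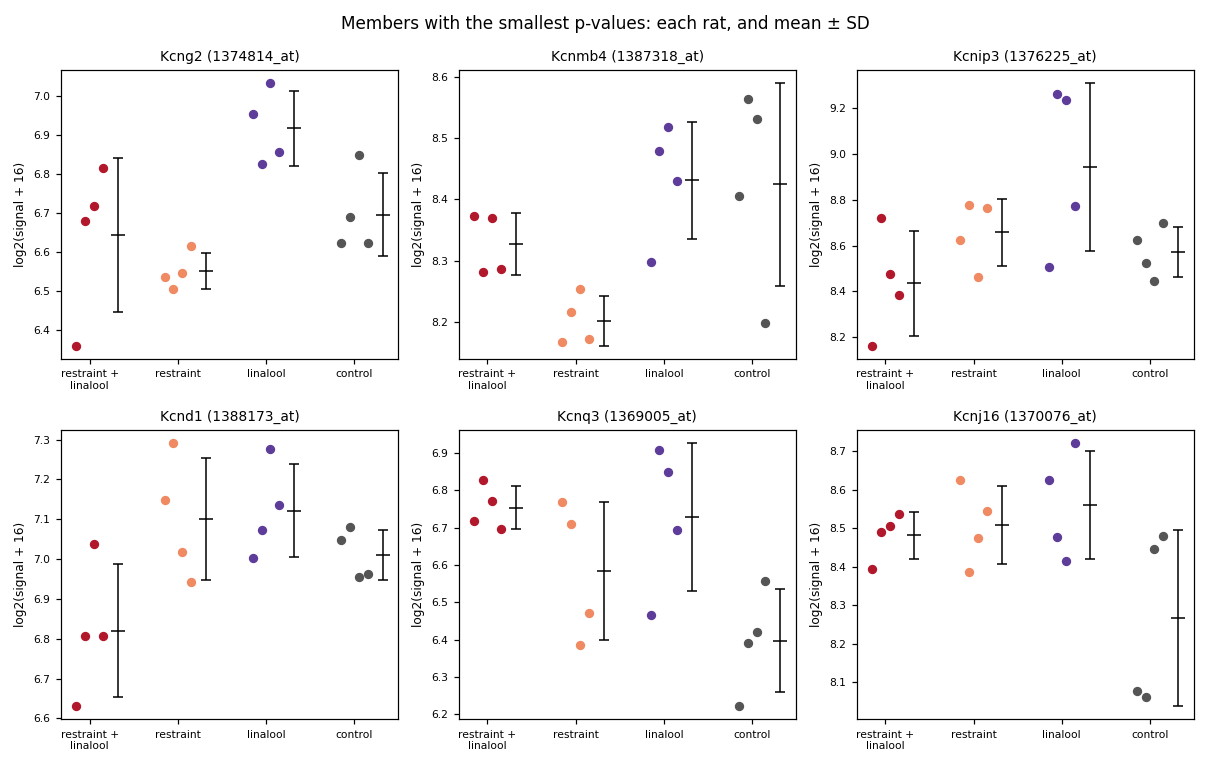
Levels of 6 potassium channel probe sets in each of 16 rats (points), on the log2(signal + 16) axis, with the mean ± SD of 4 rats beside each group. Groups run from restraint with linalool on the left to controls on the right. Each panel has its own range, and none of the 6 passed the adjusted threshold in any comparison.

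Among the inward rectifiers, 10 probe sets of 7 genes were tested. With restraint on average 6 were positive and 4 negative, with a median of 0.04, and 0 of 10 had an unadjusted p under 0.05. Kcnj10, the main potassium channel of astrocytes, had 6.16, 6.26, 6.73 and 6.81 in rats restrained with linalool and 6.25, 6.36, 6.20 and 6.55 in rats restrained alone, against 6.77, 6.43, 6.37 and 6.01 with linalool alone and 5.49, 6.70, 6.86 and 6.51 in controls. Control rat 1 was the lowest of all 16 rats, and the average difference with restraint was 0.02 (SE 0.17, 95% interval -0.34 to 0.39, limma adjusted p = 0.964).

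Kcnj16, which joins Kcnj10 in pH-sensitive channels, was measured by 2 tested probe sets. The brighter one differed by -0.01 with restraint on average (SE 0.05, 95% interval -0.12 to 0.11). The dimmer one had 8.39, 8.49, 8.51 and 8.54 in rats restrained with linalool, 8.63, 8.39, 8.47 and 8.54 in rats restrained alone and 8.63, 8.48, 8.41 and 8.72 with linalool alone, against 8.08, 8.06, 8.45 and 8.48 in controls. Control rats 1 and 2 lay below all other rats, and controls 3 and 4 within their range. In this dimmer probe set, Kcnj16 differed by 0.29 for linalool against control (SE 0.11, limma adjusted p = 0.38) and had an interaction of -0.32 (SE 0.15, limma adjusted p = 0.619). For linalool minus control the 2 probe sets had opposite signs.

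Of the channels opened by G proteins, Kcnj3, Kcnj5 and Kcnj6 were tested. Kcnj5 had 6.78, 6.57, 6.52 and 6.84 with linalool alone, against 6.28, 6.17, 6.41 and 6.32 in controls. These groups did not overlap, the one such case among 56 members where 4.75% of all probe sets did not. The difference was 0.38 (SE 0.15, limma adjusted p = 0.425), and rats restrained with linalool had 6.21, 6.46, 6.47 and 6.55 and those restrained alone 6.53, 6.18, 6.15 and 7.00. Its interaction was -0.43 (SE 0.22, limma adjusted p = 0.643).

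The other G protein-gated members did not pass either. Kcnj6 differed by 0.07 with restraint on average (SE 0.07, limma adjusted p = 0.691). Kcnj3 differed by 0.17 (SE 0.15, limma adjusted p = 0.604), with controls at 5.43, 6.04, 6.85 and 5.90. Kcnj14, a classical inward rectifier, differed by 0.08 (SE 0.07, limma adjusted p = 0.578), and Kcnj11, the pore of ATP-sensitive channels, by -0.13 in its probe set of smallest p (SE 0.10, limma adjusted p = 0.499). Kcnj8, an ATP-sensitive pore known from vascular mural cells, and Kcnj13, known from choroid plexus epithelium, did not pass the filter. Their control levels were 5.90, 6.51, 6.66 and 6.29 for Kcnj8 and 5.34, 5.48, 4.72 and 5.27 for Kcnj13.

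Of the two-pore channels, 5 probe sets of 5 genes were tested, and the average difference with restraint was negative in 4 and positive in 1. Kcnk2, a leak channel that responds to stretch and lipids, had 8.99, 9.00, 9.15 and 8.96 in rats restrained with linalool, 9.07, 8.94, 9.28 and 9.25 in rats restrained alone and 8.83, 9.06, 9.47 and 8.98 with linalool alone, against 9.30, 9.38, 9.27 and 9.27 in controls. The 4 rats with both treatments lay below the 4 controls, 1 of the 3 of 56 members without overlap there (10.0% of all probe sets). The difference was -0.28 (SE 0.12, limma adjusted p = 0.198), and the average difference with restraint -0.12 (SE 0.08, limma adjusted p = 0.49). Kcnk3, an acid-sensitive leak channel, differed by -0.12 with restraint on average (SE 0.10, limma adjusted p = 0.584).

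Kcnk1, a weak background channel, had 7.17, 7.44, 7.24 and 7.16 in rats restrained with linalool and 7.23, 7.60, 7.10 and 7.32 in rats restrained alone, against 7.12, 7.40, 6.94 and 7.18 with linalool alone and 6.87, 7.53, 7.76 and 6.98 in controls. The controls spanned the other groups, and the average difference with restraint was 0.06 (SE 0.12, limma adjusted p = 0.849). Kcnk4, another stretch-sensitive channel, differed by -0.09 (SE 0.09, limma adjusted p = 0.662). Kcnk13, known as a channel of microglia, differed by -0.04 (SE 0.08, 95% interval -0.20 to 0.12, limma adjusted p = 0.837), and its interaction was -0.23 (SE 0.15, limma adjusted p = 0.735).

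Of the calcium-activated channels, 5 probe sets of 3 genes were tested. Kcnmb4, the neuronal auxiliary subunit of the large-conductance channel, had 8.37, 8.28, 8.37 and 8.29 in rats restrained with linalool and 8.17, 8.22, 8.25 and 8.17 in rats restrained alone, against 8.30, 8.48, 8.52 and 8.43 with linalool alone and 8.41, 8.56, 8.53 and 8.20 in controls. Rats restrained alone were the lowest group, and control rat 4 lay among them. The average difference with restraint was -0.16 (SE 0.06, limma adjusted p = 0.132). Leaving out control rat 4, the lowest control, necessarily widened the difference and made it a call (-0.20, limma adjusted p = 0.044). That fit called 765 of all probe sets. For restraint without odour the difference was -0.22 (SE 0.08, limma adjusted p = 0.268).

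The pore of that channel, Kcnma1, had 7.52, 7.97, 7.72 and 7.87 in rats restrained with linalool and 7.46, 7.51, 7.69 and 7.61 in rats restrained alone, against 7.73, 7.65, 7.31 and 7.30 with linalool alone and 8.02, 7.18, 7.91 and 7.55 in controls. The controls covered the range of all other groups. Its average difference with restraint was 0.09 (SE 0.11, 95% interval -0.15 to 0.33, limma adjusted p = 0.737). Kcnt1, the sodium-activated relative, differed by 0.05, 0.05 and 0.11 in its 3 tested probe sets. The calcium-activated channel genes Kcnn1, Kcnn3 and Kcnn4 had no probe set that passed the filter.

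In 11 genes more than 1 probe set was tested. For the average change with restraint they had the same sign in 8 genes and opposite signs in 3 (Kcnab2, Kcnj11 and Kcnj16). For linalool minus control the signs were the same in 6 genes and opposite in 5.

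The 70 members below the filter were examined in a fit over all 31042 probe sets with no filter on signal. For the average change with restraint it called 2 of the 126 members, where 1.68% of all probe sets were called. That count is near the share of all probe sets, and so is no result particular to the members. The 2 were Kcnh6 and Kcnk5, both dim, and both were singled out after their values were seen. Kcnh6, an ether-a-go-go-related channel, was lower in restrained rats, and Kcnk5, a two-pore channel that opens at alkaline pH, was higher.

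Kcnh6 had 5.66, 5.56, 6.05 and 5.74 in rats restrained with linalool and 6.27, 6.05, 5.68 and 6.61 in rats restrained alone, against 6.63, 6.59, 6.57 and 6.50 with linalool alone and 6.40, 6.30, 6.52 and 6.64 in controls. All 8 unrestrained rats lay above the 4 rats with both treatments, whereas rats restrained alone overlapped the controls through rat 4. Among all probe sets that passed the filter, rats with both treatments did not overlap those with linalool alone in 12.3%, or controls in 10.0%. The average difference was -0.57 (SE 0.11, 95% interval -0.81 to -0.33, limma adjusted p = 0.0184), or 0.675 times the unrestrained value of signal + 16. Kcnh6 also fell in rats restrained with linalool against linalool alone, by 0.82 on the log2 scale (SE 0.16, limma adjusted p = 0.0317), where 1 of 126 members and 0.596% of all probe sets were called. Against controls it fell by 0.71 with both treatments (SE 0.16, limma adjusted p = 0.0403), where 1 of 126 members and 1.38% of all were called. Restraint without odour gave -0.31 (SE 0.16, limma adjusted p = 0.539), and the interaction was -0.51 (SE 0.23, limma adjusted p = 0.687). Leaving out 1 rat, the difference for restraint without odour ran from -0.47 to -0.155, the smallest without restraint rat 3 (limma adjusted p = 0.795).

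The call of Kcnh6 for the average change with restraint was kept in all 16 fits that left out 1 rat, with differences of -0.64 to -0.49 and limma adjusted p of 0.00489 to 0.0465. These fits reuse most of the rats by which Kcnh6 was singled out, so a kept call is no independent support. The call was not kept with the signals as deposited (-0.36, limma adjusted p = 0.167). It was also lost within the 13 arrays with a low signal of the spike-in BioC, which stood higher on the other 3 (-0.55, limma adjusted p = 0.105). With a pseudocount of 1 in place of 16 it was -0.73 (limma adjusted p = 0.0286), and with 64 it was -0.34 (limma adjusted p = 0.0141). Its call against linalool alone was kept in 9 of the 16 fits (limma adjusted p 0.0115 to 0.118). That call was lost with the signals as deposited (-0.49, limma adjusted p = 0.161), within the arrays of low BioC signal (-0.79, limma adjusted p = 0.21) and with a pseudocount of 1 (-1.05, limma adjusted p = 0.051). It was kept with a pseudocount of 64 (-0.49, limma adjusted p = 0.0219). Normalized signals of Kcnh6 ran from 31.1 to 83.7 over the 16 rats.

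Kcnk5 had 5.34, 5.21, 5.45 and 5.40 in rats restrained with linalool and 5.83, 5.32, 5.65 and 5.56 in rats restrained alone, against 4.75, 5.05, 4.93 and 5.13 with linalool alone and 5.17, 5.29, 4.88 and 4.95 in controls. Restrained rats lay above unrestrained rats in each odour condition, with no overlap in either. Among all probe sets that passed the filter, groups did not overlap in 5.92% without odour and in 12.3% with linalool. Kcnk5 rose by 0.45 with restraint on average (SE 0.09, 95% interval 0.26 to 0.64, limma adjusted p = 0.0163), or 1.37 times the unrestrained value of signal + 16. The difference was 0.52 without odour (SE 0.13, limma adjusted p = 0.115) and 0.39 with linalool (SE 0.13, limma adjusted p = 0.206), neither of which passed by itself.

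Kcnk5 kept its call in all 16 fits that left out 1 rat (0.41 to 0.50, limma adjusted p 0.0106 to 0.0387), with the signals as deposited (0.61, limma adjusted p = 0.00594) and within the arrays of low BioC signal (0.54, limma adjusted p = 0.0353). All of these fits reuse rats by which Kcnk5 was singled out, so a kept call is no independent support. Normalized signals of Kcnk5 ran from 10.9 to 41.1, and the pseudocount of 16 lies within that range, so the size of the difference depends on it. With a pseudocount of 1 the difference was 0.76 (limma adjusted p = 0.0208), and with 64 it was 0.20 (limma adjusted p = 0.0278).

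**Figure D3:**
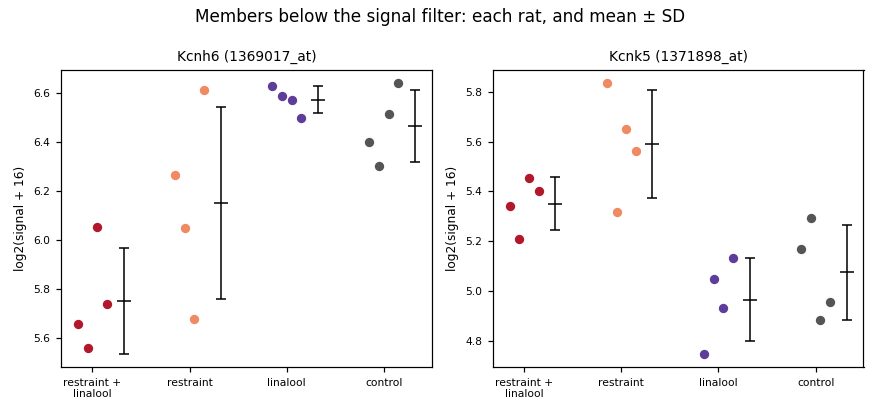
Levels of Kcnh6 (left) and Kcnk5 (right), 2 dim potassium channel probe sets below the signal filter, in each of 16 rats (points) on the log2(signal + 16) axis, with the mean ± SD of 4 rats beside each group. Kcnh6 lies lowest in rats restrained with linalool, and Kcnk5 lies higher in both restrained groups than in the unrestrained group of the same odour condition.

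Kcnc2, a pore subunit of the fast channels of rapidly firing neurons, held 4 of the 6 tested probe sets that varied most between rats of a group, with within-group SDs of 0.36 to 0.54. In its brightest probe set the levels were 9.79, 9.76, 9.87 and 10.30 in rats restrained with linalool and 9.87, 10.44, 9.86 and 9.99 in rats restrained alone, against 10.55, 9.77, 10.04 and 9.95 with linalool alone and 10.27, 9.91, 11.18 and 9.75 in controls. Control rat 3 was the highest, and each group held 1 rat clearly above the rest of it. The average difference with restraint was -0.19 (SE 0.18, limma adjusted p = 0.629). For linalool against control its second brightest probe set had -0.68 (SE 0.34, limma adjusted p = 0.527). That value rested on control rat 3 in large part, and the difference of the means without it was -0.35.

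These high rats were also high in thalamic markers, of brain tissue beside the hypothalamus. Prkcd, a kinase gene strongly expressed in thalamic relay neurons, had 7.77, 7.63, 7.96 and 8.75 in rats restrained with linalool and 7.56, 9.16, 8.13 and 7.40 in rats restrained alone, against 9.11, 7.56, 7.65 and 7.85 with linalool alone and 8.52, 7.75, 9.93 and 7.51 in controls. The list held 6 thalamus and cortex genes, of which 5 were on the array and 3 (Prkcd, Tcf7l2 and Rora) passed the filter, while the cortical Neurod6 and Tbr1 did not. These 2 dim cortical genes were not high in control rat 3. Neurod6 was 5.63 there, against 6.12, 6.02 and 6.12 in the other controls, and Tbr1 was 5.09, against 4.52, 5.51 and 5.23. The log2 summed signal of the list ran from 10.42 to 11.24 with both treatments, 10.09 to 11.24 with restraint alone, 10.24 to 11.49 with linalool alone and 10.27 to 11.80 in controls.

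Across the 16 rats, as deviations from their group means, the brightest probe set of Kcnc2 went with that sum at Pearson's r = 0.895 (permutation p = 0.00083, adjusted p = 0.0409 over 56 members) and Spearman's rho = 0.682 (permutation p = 0.0311, adjusted p = 0.324). The second brightest had r = 0.83 (permutation p = 0.00146, adjusted p = 0.0409) and rho = 0.715 (permutation p = 0.0127, adjusted p = 0.324). The permutations were drawn within groups (100000, two-sided), and the rank correlations did not pass adjustment. Without the 2 rats farthest from the median of the sum, control rat 3 and linalool rat 1, r was 0.829 and 0.804. Within the arrays of low BioC signal it was 0.898 and 0.833. The dimmest tested Kcnc2 probe set and the next had r = 0.74 and r = 0.716 (permutation adjusted p = 0.125 for each), and 0.534 and 0.524 without those 2 rats. Of the other members, 1 of 3 tested probe sets of Kcnj11 had r = 0.733 (permutation p = 0.00483, adjusted p = 0.0902) and rho = 0.562 (permutation p = 0.0339, adjusted p = 0.324). Without the 2 rats its r was 0.563. The remaining Kcnj11 probe sets had r = 0.263 (permutation p = 0.471) and r = -0.00125 (permutation p = 0.997). The log2 summed signals of listed pituitary and choroid plexus markers also varied within groups. They did so most for pituitary in controls (7.93 to 12.76) and for choroid plexus with both treatments (7.93 to 9.53). Their relation to the members was not tested. The part of dissection in the levels of Kcnc2 was not tested. In such bulk tissue, fewer cells of a type and less RNA per cell cannot be told apart.

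**Figure D4:**
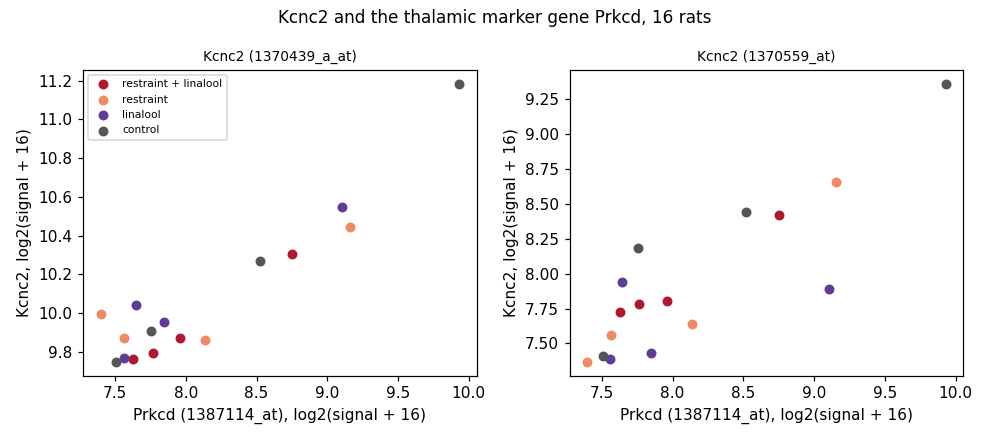
Levels of the brightest (left) and second brightest (right) Kcnc2 probe set against the level of the thalamic marker gene Prkcd, both on the log2(signal + 16) scale, with 1 point for each of 16 rats coloured by group. Control rat 3, at 9.93 in Prkcd, is the highest in both Kcnc2 probe sets, at 11.18 and 9.36.

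Genes that work beside these channels were read in the same way. Of 17 listed partners of potassium channels (anchoring, trafficking and auxiliary proteins), 13 were tested on 21 probe sets, and limma called 0 in any of the 8 comparisons, with 0 to 4 probe sets at an unadjusted p under 0.05 in each. The lowest adjusted p among them was 0.0889, of the dimmer Dlg4 probe set for the average linalool effect (0.45), and the brighter had 0.01 (limma adjusted p = 0.951). For linalool among restrained rats, 1 of 4 probe sets of Snx27, a sorting nexin that binds inward rectifiers, had 0.49 (limma adjusted p = 0.114), and the other 3 had -0.20, 0.30 and 0.12. The dimmer probe set of Dlg4, a scaffold of the synapse that clusters voltage-gated channels, had 0.56 (limma adjusted p = 0.141) and the brighter -0.12 (limma adjusted p = 0.693). The probe sets of both genes differed in sign. Of 14 related cation channels and potassium transporters, 8 were tested on 10 probe sets, and limma called 0 in any comparison, with 0 to 2 at an unadjusted p under 0.05. The lowest adjusted p was 0.166, for restraint among rats inhaling linalool, of Hcn3, a pacemaker cation channel (-0.33).

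The glucocorticoid-induced genes used as a check on restraint changed in the same fit: Sgk1 rose by 2.17 on average (SE 0.08, limma adjusted p = 3.91e-10), Per1 by 1.05 and Fkbp5 by 0.81 and 0.97 in its 2 probe sets. Hypothalamic markers were present, with Oxt, Pmch, Trh, Crh, Hcrt and Avp above the filter and Pomc and Sim1 below it. Of 6 microglial markers, P2ry12 and Cx3cr1 were lower with restraint on average (-0.72 and -1.0 in the 2 probe sets of P2ry12, and -0.49), while the log2 summed signal of that list was 10.74 to 10.86 with both treatments and 10.67 to 10.93 with restraint alone, against 10.86 to 11.19 with linalool alone and 10.95 to 11.17 in controls. Of 6 astrocyte markers, Gjb6 was higher with restraint on average (0.29), and 1 of 5 endothelial markers, Slco1a4, was lower (-0.34, limma adjusted p = 0.0472). For both treatments against control, 4.00% of all probe sets were called. There, 1 of 5 endothelial, 1 of 3 pericyte and 1 of 5 oligodendrocyte markers tested were lower (limma adjusted p = 0.0173, 0.0202 and 0.044). In that comparison 2 of 6 microglial markers were also lower (smallest limma adjusted p = 0.00592). By contrast, 1 of 6 astrocyte markers was higher (limma adjusted p = 0.0216). Linalool among restrained rats gave 1 of 6 astrocyte markers higher (limma adjusted p = 0.0444), where 0.650% of all were called. The part of these cell types in the channel levels was not tested. Median deposited signals per array were 67.03 to 127.5. The BioC spike-in lay at 903.3 to 960.3 on 3 arrays (linalool rats 2 and 4, and rat 2 of restraint with linalool) and at 246.2 to 281.8 on the other 13, a split that no label explains.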

How the data were processed

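Signal intensity values came from a table deposited by the authors, computed with MAS5 per the submitters' processing notes (version and scaling not given in the sources used here), for 31099 probe sets on 16 arrays. Control probe sets (57) were left out. Quantile normalization was applied to the log2 intensities, and a pseudocount of 16 was added on the linear scale before the final log2, so that differences of dim genes are understated and a shift common to most transcripts is removed. limma 3.58.1 in R 4.3.3 (lmFit, eBayes, two-sided) was fitted on 4 group means over all arrays, for the probe sets at or above the 40th percentile of mean level. Benjamini-Hochberg adjustment ran over 18625 probe sets in each of 8 comparisons. The procedure was tested on simulated data.

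Gene symbols came from the platform's annotation table, in which 20826 probe sets had 1 symbol. All 75 member genes were found by gene ID in the RefSeq gene table, with 0 symbols changed. Per the labels each array is a separate rat, so p-values measure the spread between rats, whose number limits the precision.

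Members, lists and tests were chosen with earlier results of these data known. The genes named were, per family, the 3 brightest in controls, the 3 of smallest p for the average change with restraint, the 2 of smallest p for linalool among restrained rats, linalool against control and the interaction, and Kcnj10, Kcnj13, Kcnj8, Kcnq3, Kcnma1, Kcnk1 and Kcnk2. Correlations were computed in Python 3.11.15. Alternatives changed the normalization, pseudocount, filter, variance model, covariates and arrays.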

Additional observations from a re-analysis of the deposited data

Results flagged for a closer look

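In 8 of 140 groups of the named probe sets, 1 rat lay far from the other 3 by Dixon's test at its 95% critical value for 4 samples (0.829), which chance passes in about 1 of 20 groups. Among the tested probe sets, control rat 2 was low in Kcna2 (10.53, the nearest rat 10.61) and control rat 4 was low in Kcnd2's brighter probe set (10.36, nearest 10.58). Linalool rat 1 was low in the brightest Kcnip1 probe set (9.56, nearest 9.68), and rat 3 of restraint alone was low in Kcnj6 (8.62, nearest 8.71). Among rats restrained with linalool, rat 3 was low in the second brightest Kcnj11 probe set (6.52, nearest 6.84) and rat 1 was low in Kcnk3 (7.10, nearest 7.55). Among probe sets below the filter, rat 4 of restraint alone was high in the dimmer Kcnk2 probe set (6.72, nearest 4.94) and control rat 3 was high in the dimmer Kcnq3 probe set (6.31, nearest 5.86).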

How the results depend on the processing

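The count of called members stayed at 0 in all 8 comparisons with arrays scaled to a common trimmed mean, the signals as deposited, pseudocounts of 1 and 64, the filter at the 60th percentile (which left 30 members tested, in place of 56), a trended and robust variance, the groups of a comparison alone, the beta-actin ratio as a covariate, the BioC split as a block, the arrays of low BioC signal, and without control rats 1 and 2 together. The last was chosen after seeing the data, as were the further fits of Kcnh6 and Kcnk5. With no filter it was 2 for the average change with restraint and 1 each for restraint among linalool-inhaling rats and both treatments against control. Leaving out 1 rat gave 0 to 1 calls in these 3 comparisons and 0 in the other 5. With the replicate number as a block the count was 0. Same-numbered rats did not clearly deviate together (4 of 24 pairs with r over 0.1, -0.164 to 0.226). Their mean r was 0.014, against -0.005 for other numbers. No pairing by number was seen, though weak correlations cannot exclude one.

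Average differences with restraint changed sign as follows, and the cause was not tested. With the signals as deposited, whose overall shift was 0.22, they were Kcna2 0.20, Kcnc2 (brightest probe set) 0.029, Kcnd2 0.12, Kcng2 0.011, Kcnip1 0.067, Kcnj11 0.088, Kcnj16 (brighter probe set) 0.21, Kcnk2 0.11, Kcnk3 0.10, Kcnk4 0.13 and Kcnmb4 0.063. There Kcnk13 had an interaction of 0.016 and -0.029 for linalool against control. With the BioC block Kcnj10 was -0.018 and the brighter Kcnj16 probe set 0.0010. Within the arrays of low BioC signal Kcnj10 was -0.026 and Kcnj6 -0.034. Without control rats 1 and 2, Kcnj10 was -0.12, Kcnj16 -0.017 in the dimmer and 0.028 in the brighter probe set. Leaving out 1 rat, Kcna2 ran from -0.046 to 0.030, Kcnj10 from -0.13 to 0.10, the brighter Kcnj16 probe set from -0.026 to 0.015, Kcnt1 from -0.011 to 0.15 in its brightest and from -0.021 to 0.093 in its second brightest probe set, and Kcnk1 from -0.011 to 0.14.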

Other observations

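Control rat 1, whose log2 ratio of 3' to 5' beta-actin signal was the highest of all arrays (2.30, against 1.06 to 1.81 on the others), had the lowest level of all 16 rats in the second brightest Kcnab2 probe set (5.89), Kcnj10 (5.49) and Kcnj3 (5.43). These 3 were picked after their values were seen. Over the 56 tested members, control rat 1 was the lowest of the 4 controls for 17 and the highest for 11, so that it was not low in most of them. Rat 1 of restraint with linalool was the lowest of its group for 24 of the 56 and the highest for 5. Any part of RNA quality in these values was not tested.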
